A study of Mus musculus with 10 samples.

Results

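Sox4 sites at open gene ends were the places where Sox4 peaks lay beside a coding gene in chromatin that was open in the wildtype cochlear duct. A Sox4 site was a 501-bp window around a peak summit, merged over replicates, that was present among the 20000 strongest autosomal Sox4 peaks of at least 2 of 3 replicates. It was kept where a coding gene started or ended at most 1 kb away and where it overlapped an ATAC peak in all 3 wildtype lists. The sites were thus chosen by the rank of their Sox4 peaks and by the presence of wildtype ATAC peaks. The rule gave 597 of the 1701 Sox4 sites of the series. The other Sox4 sites were 474 open sites further from genes, 33 gene end sites that were not open in all 3 wildtype lists, and 597 sites that met neither condition.

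The ATAC libraries came from SoxC double knockout epithelium (2 libraries) and wildtype epithelium (3 libraries) of E13.5 mouse cochlear ducts, freed from the surrounding tissue with dispase and collagenase per the protocol. Sox4 was mapped by CUT&RUN, in which an antibody directs a nuclease to cut the DNA around its target, in GFP-positive progenitors sorted from p27kip1-GFP wildtype mice (3 replicates). Neither the deleted genes nor the Cre driver of the knockout ATAC embryos is given in the labels, and a Pax2cre SoxC fl/fl strain is named only for a single-cell library that was not used here. The titles of the ATAC libraries call them whole organ, while the protocol says that the epithelial layer was isolated and lysed whole, with no sort. The ATAC and Sox4 libraries thus differ in the cells taken. A weaker ATAC peak can come from fewer cells of a type or from less open chromatin per cell, and these cannot be told apart in such tissue.

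SoxC proteins are transcription factors that bend DNA through an HMG box, and they act in progenitors and young neurons of many tissues. In the cochlea at this stage the prosensory progenitors leave the cell cycle under the control of the cyclin-dependent kinase inhibitor p27kip1, encoded by Cdkn1b. Gene starts are usually held open in all cells by broadly expressed factors such as NF-Y, which binds the letters CCAAT, and Sp1, which binds GC boxes. A Sox4 peak at such a start does not say that the gene depends on Sox4. With no control-antibody list used here, it does not settle that Sox4 was near the start either.

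The sequences that follow are the 250 bases upstream of the annotated start of 8 genes with sites, from the RefSeq promoter table of GRCm38.p6 (the mm10 build). They were picked, after their values were seen, from the members with the strongest Sox4 signal and those with the largest changes in knockout, to show the letters on which the motif counts turn. Each runs 5′ to 3′ toward the start, and capitals mark letters on either strand. These are the CCAAT box, which reads ATTGG on the other strand, and 3 words bound by Sox factors, AACAAT for one, AACAAAG for another, and the shorter word ACAAAG that it contains.
Hnrnpa1 (chr15:103240147-103240396, plus strand): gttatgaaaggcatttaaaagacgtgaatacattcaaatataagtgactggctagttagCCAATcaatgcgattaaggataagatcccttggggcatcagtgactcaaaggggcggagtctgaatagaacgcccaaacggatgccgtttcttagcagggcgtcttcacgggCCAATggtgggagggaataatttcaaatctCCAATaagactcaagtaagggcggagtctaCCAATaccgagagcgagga
Sp1 (chr15:102406066-102406315, plus strand): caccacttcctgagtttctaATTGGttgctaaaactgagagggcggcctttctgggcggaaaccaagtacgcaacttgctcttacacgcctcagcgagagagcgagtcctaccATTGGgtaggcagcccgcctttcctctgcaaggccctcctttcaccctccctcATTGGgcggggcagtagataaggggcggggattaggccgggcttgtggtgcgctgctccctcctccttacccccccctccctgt
Atp5g1 (chr11:96075632-96075881, minus strand): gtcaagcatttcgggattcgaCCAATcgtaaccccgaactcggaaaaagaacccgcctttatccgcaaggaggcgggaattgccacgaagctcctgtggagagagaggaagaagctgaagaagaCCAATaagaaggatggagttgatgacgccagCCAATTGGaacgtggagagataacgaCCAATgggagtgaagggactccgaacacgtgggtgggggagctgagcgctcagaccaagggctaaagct
Ilf2 (chr3:90475951-90476200, plus strand): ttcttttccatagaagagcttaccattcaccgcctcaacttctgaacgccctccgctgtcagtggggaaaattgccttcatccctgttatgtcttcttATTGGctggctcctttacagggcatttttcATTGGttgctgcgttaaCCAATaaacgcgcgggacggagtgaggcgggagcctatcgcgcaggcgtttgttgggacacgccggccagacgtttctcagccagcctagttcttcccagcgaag
Hmgb2 (chr8:57511593-57511842, plus strand): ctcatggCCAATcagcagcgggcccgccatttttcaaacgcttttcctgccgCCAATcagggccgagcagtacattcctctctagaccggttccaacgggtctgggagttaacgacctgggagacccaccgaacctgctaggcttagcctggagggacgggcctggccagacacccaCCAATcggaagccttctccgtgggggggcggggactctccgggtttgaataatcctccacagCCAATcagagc
Fbxo5 (chr10:5805466-5805715, minus strand): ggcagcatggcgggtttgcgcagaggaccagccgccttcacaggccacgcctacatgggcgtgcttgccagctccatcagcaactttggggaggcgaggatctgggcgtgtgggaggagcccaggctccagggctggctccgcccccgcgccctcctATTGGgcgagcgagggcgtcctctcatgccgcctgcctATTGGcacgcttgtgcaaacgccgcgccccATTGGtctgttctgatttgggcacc
Fiz1 (chr7:5014729-5014978, minus strand): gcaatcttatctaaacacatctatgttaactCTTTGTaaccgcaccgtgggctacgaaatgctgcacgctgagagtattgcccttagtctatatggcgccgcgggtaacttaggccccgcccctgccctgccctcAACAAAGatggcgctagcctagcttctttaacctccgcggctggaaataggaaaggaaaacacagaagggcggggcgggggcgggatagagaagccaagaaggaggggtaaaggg
Polr2a (chr11:69758634-69758883, minus strand): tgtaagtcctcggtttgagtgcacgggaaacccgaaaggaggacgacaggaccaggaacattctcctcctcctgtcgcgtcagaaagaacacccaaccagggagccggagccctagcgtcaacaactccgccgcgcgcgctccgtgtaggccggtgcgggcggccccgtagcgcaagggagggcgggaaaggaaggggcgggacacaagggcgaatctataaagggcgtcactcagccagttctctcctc
Hnrnpa1, Sp1, Ilf2, Hmgb2, Atp5g1 and Fbxo5 each have several copies of the CCAAT box and none of the 3 Sox words. Fiz1 has Sox letters at −219 and −115 relative to the start and no CCAAT box, and Polr2a has neither. These 8 do not stand for the whole set. At least 2 copies of the CCAAT box were present in 30.5% of the 658 promoters with a Sox4 site.

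The ATAC lists were ordered by the deposited −log10 p of each peak, and rank 1 is the strongest peak of its own list. Merged autosomal peaks numbered 208902 and 192810 in the knockout lists and 165038, 145099 and 173032 in the wildtype lists. The peak at rank 50000 had a −log10 p of 104 and 50.5 in the knockout lists and of 19.03, 10.5 and 8.75 in the wildtype lists, so only the order within a list was compared. The names of the knockout lists state a p threshold and a cap on peaks that the wildtype names do not, so genotype and list processing cannot be told apart. No read totals stood in the lists, so depth is unknown, and nothing in the labels says that replicates came from separate litters. P-values then measure only the spread between these libraries, which may be technical. As a check of the tissue, all 9 epithelial marker genes had an open end in wildtype, as had 24 of 25 prosensory genes, against 63.3% of all coding genes. Of markers of other cells, 8 of 10 glia and melanocyte genes, 10 of 14 spiral ganglion neuron genes, 6 of 12 otic mesenchyme genes and 2 of 13 blood and endothelium genes had one, and an open end alone does not tell which cells were present. No control-antibody list was used here, so cutting that any CUT&RUN library would show at open chromatin cannot be told apart from Sox4 signal.

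Sox4 signal at these sites was recurrent. All 3 replicates held a window at 230 of the 597 sites (38.5%), against 122 of 474 open sites further from genes (25.7%) and 33 of 630 sites that were not open (5.24%). Over all Sox4 sites of the series the share was 22.6%. Windows were present at 456 sites in replicate 1, 433 in replicate 2 and 535 in replicate 3, and the median Sox4 ranks there were 1198, 1318 and 743. The fold enrichment over local background, the authors' own value per peak, had a median of 6.18 in replicate 1 (4.16 to 23.3), 4.77 in replicate 2 (3.38 to 16.7) and 4.05 in replicate 3 (2.76 to 10.9). These values chose the sites and are given as a description.

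The strongest Sox4 signal, taken as the best worst rank over the 3 replicates, is described at 10 sites. The site over the paired starts of Fiz1 and Zfp524 (chr7:5014713-5015316), which encode zinc finger proteins, ranked 6, 2 and 10 in Sox4 replicates 1 to 3, with fold enrichments of 14.6, 16.7 and 10.2. At the divergent start of Cbx5, which encodes the heterochromatin protein HP1 alpha, and Hnrnpa1, which encodes a splicing regulator, the site (chr15:103239880-103240425) ranked 20, 14 and 9. Its ATAC ranks were 2463 and 2776 in SoxC double knockout and 4338, 5302 and 4645 in wildtype. The knockout libraries thus lay nearer the top of their lists than all 3 wildtype libraries, with no call in the test described further on (adjusted p = 0.16, limma).

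Sp1, which encodes a factor that binds GC boxes, carried a site (chr15:102405644-102406226) with Sox4 ranks of 24, 10 and 47, and ATAC ranks of 1128 and 1170 in knockout and 2998, 2922 and 2015 in wildtype. At the start of Polr2a, the largest subunit of RNA polymerase II (chr11:69758669-69759190), the Sox4 ranks were 29, 35 and 46. An end of Slc35g3 also lay within 1 kb of that site. The ATAC peak there was weaker, with ranks of 10707 and 11258 in knockout and 9917, 15798 and 18860 in wildtype, and the groups overlapped. The remaining sites among the 10 were at Mrps18b with Ppp1r10, Tmem80, Zfp438, Cldn9, 0610009B22Rik and Garnl3. Cldn9, which encodes a tight junction claudin of the inner ear, had Sox4 ranks of 32, 5 and 40 (chr17:23684017-23684551).

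The highest fold enrichment of all was at Psmb5, a catalytic subunit of the proteasome, with 23.3 in Sox4 replicate 1, 7.73 in replicate 2 and 6.54 in replicate 3 (chr14:54617863-54618460). Its Sox4 ranks were 3, 81 and 103, but its ATAC ranks of 26108 and 29428 in knockout and 44458, 40724 and 37249 in wildtype were far down the lists. A strong Sox4 peak therefore did not always sit on a strong ATAC peak.

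Position was centred just upstream of gene starts. Of the 597 sites, 441 overlapped the annotated end of a gene, and 511 lay at a 5′ end. At 7 sites only a 3′ end was near, among them a second site at Id2, and for 79 sites the strand of the gene was not in the table. Of 13540 other open gene ends 9671 lay at a 5′ end, 1069 had only a 3′ end near, and 2800 had no known strand. Among the 503 sites with a start in the table, the summit lay upstream in 337, downstream in 164 and on the start in 2, with a median of −141 bp (interquartile range −292 to 92 bp). In 308 of them (61.2%) it was within 250 bp. Distances from summit to start were not taken at other open gene ends, so these have no background. The last sites inside the 1-kb limit were at Foxo3 (945 bp), Gpr108 (971 bp) and Ammecr1l (985 bp), and the first outside it were at Zfp503 (1057 bp), Grik5 (1067 bp) and Khdrbs1 (1101 bp).

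Paired gene ends were common. At least 2 coding genes had an end within 1 kb of 201 of the 597 sites (33.7%), against 1855 of 13540 open gene end regions with no Sox4 site (13.7%). The sites were wider, with a median of 606 bp against 530 bp for the other regions, and how far width adds to this share was not tested. At 4 sites 3 genes met, among them the site at Ache, which encodes acetylcholinesterase, Ufsp1 and Srrt (chr5:137294081-137295055). The closest neighbours were 2 sites between the histone genes H4c1, H3c1 and H1f1 on chromosome 13, with a gap of 607 bp. The 2 sites of Id2, an inhibitor of bHLH factors, were 2750 bp apart, and those of the claudin genes Cldn6 and Cldn9 were 4285 bp apart.

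The more open a gene end was in wildtype, the more often it carried a Sox4 site. Among open gene ends whose worst wildtype rank was 500 or better, 44 of 269 had a site (16.4%, exact binomial 95% interval 12.1 to 21.3%, for counting error only). From ranks 4001 to 8000 the share was 8.69%, from 8001 to 16000 it was 4.82%, and beyond rank 32000 it was 0.356% (16 of 4493). Over all 14137 open gene end regions it was 4.22%. Since the rule asked only for presence of a wildtype peak and not for its strength, this order was not fixed by the choice of sites.

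**Figure D1:**
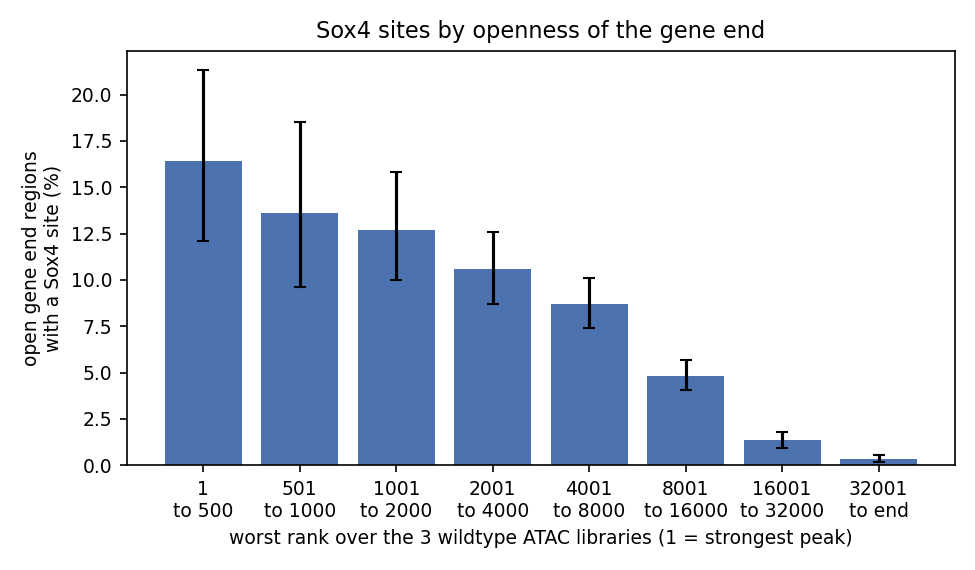
Share of open gene end regions that carry a Sox4 site (%, vertical axis) by the worst rank of the region over the 3 wildtype ATAC lists (horizontal axis). Bars give the share and whiskers the exact binomial 95% interval, for counting error only. The share is 16.4% in the strongest bin and 0.356% in the weakest.

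In the individual libraries the median ATAC rank of the sites was 3205 and 2585 in knockout and 3311, 3956 and 4055 in wildtype. Open gene ends with no Sox4 site had medians of 12483 and 12379 in knockout and 13116, 15102 and 15296 in wildtype. Of the sites, 87.9% and 90.3% were among the 10000 strongest peaks of the knockout lists, and 88.3%, 82.4% and 83.1% among those of the wildtype lists. For other open gene ends these shares were 43.4% and 43.2% in knockout, and 41.4%, 37.4% and 37.0% in wildtype. The sites therefore stood near the top of all 5 lists, in both genotypes.

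**Figure D2:**
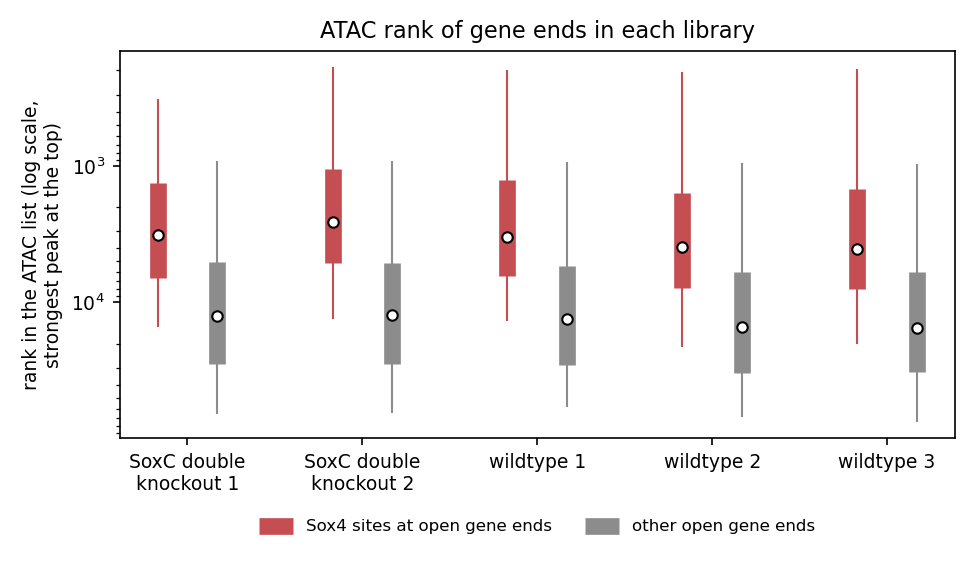
ATAC rank (vertical log axis, strongest peak at the top) of the 597 Sox4 sites at open gene ends (red) and of other open gene ends (grey) in each library. Thin lines span the 5th to 95th percentile, thick bars the interquartile range, and circles mark medians. The sites lie higher than other gene ends in both knockout and all 3 wildtype libraries.

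Genes with a site were 797 of the 13079 coding genes with an open end (6.09%). The lists used here were drawn up with earlier results of these data known, several genes are on more than 1 list, and their counts are descriptions to be read against that share. Among prosensory genes, which mark the progenitors of the organ of Corti, 5 of 24 with an open end had a site (20.8%): Cdkn1b, Id2, Id3, Hes1 and Notch1. Cdkn1b encodes p27kip1, whose reporter was used for the sort. Its site (chr6:134920228-134920823) ranked 209 in Sox4 replicate 1 and 91 in replicate 3 and had no window in replicate 2. Its ATAC ranks were 8770 and 4661 in knockout and 4993, 7189 and 9785 in wildtype, so the groups overlapped.

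Supporting cell genes had sites at 3 of 16 (18.8%), namely Cdkn1b and the Fgf-responsive ETS factors Etv5 and Etv4. Hair cell genes had none at 13 open ends, medial floor genes none at 9, roof and lateral wall genes none at 12, and otic mesenchyme genes none at 6. Of 8 glia and melanocyte genes with an open end 1 had a site, Pmel, whose start is shared with the endosomal GTPase gene Rab5b. The only spiral ganglion neuron gene among 10 was Isl2, a LIM-homeodomain factor, and its site lay at the 3′ end (chr9:55546391-55547337). Epithelial genes had 2 of 9, Grhl2, a regulator of epithelial junctions, and Cldn6.

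Signalling lists had 2 or 3 genes with a site each. The Notch list had 3 of 29 (10.3%), the receptor gene Notch1, the target Hes1 and the Notch inhibitor Numb. Wnt had 2 of 35 (5.71%), the kinase gene Gsk3b and the receptor gene Fzd7. Gsk3b had the stronger Sox4 signal of the pair, with ranks of 65, 21 and 68 (chr16:38088737-38089453). Fgf had 3 of 18 (16.7%), which were Etv5, Etv4 and the phosphatase gene Dusp6. BMP and TGF-beta had 3 of 26 (11.5%), Id2, Id3 and the inhibitory Smad7. The Hippo list had 2 of 19 (10.5%), the coactivator gene Yap1 and the TEAD factor gene Tead3.

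Of the SoxC genes, Sox12 alone had a site (chr2:152398819-152399626), 773 bp from the gene end, with Sox4 ranks of 3183 in replicate 2 and 6943 in replicate 3 and no window in replicate 1. Its ATAC ranks were 7265 and 3620 in knockout and 6666, 6415 and 5484 in wildtype, so the groups overlapped. Inside the gene body of Sox12, by contrast, ATAC peaks covered 5.59% and 0.428% of the gene in knockout and 23.8%, 17.9% and 21.8% in wildtype. Peaks covered 21.1% and 7.91% of Sox4 in knockout and 12.5%, 3.30% and 19.7% in wildtype. For Sox11 the covered share was 17.3% and 14.9% in knockout and 10.9%, 7.41% and 11.3% in wildtype. The coverage of Sox12 was lower in both knockout libraries than in all 3 wildtype libraries, while that of Sox4 overlapped and that of Sox11 was higher in knockout. These peaks do not check the deletion, because the labels do not say which parts of which genes were removed.

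Cell cycle genes had sites at 6 of 39 (15.4%), which were Cdkn1b, Cdkn2d, E2f3, Pcna, Mcm4 and Mcm7, the last 3 encoding parts of the replication machinery. At Mcm7 with Ap4m1 the Sox4 ranks were 82, 63 and 6066 (chr5:138170827-138171523). Chromatin regulators had 5 of 45 (11.1%), among them Brd2, Kdm5a, Arid1a and Chd8.

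Genes used by every cell also carried sites, at shares that differed between families. The hnRNP and SR splicing factors had 6 of 28 (21.4%), ER and Golgi traffic genes 15 of 99 (15.2%) and spliceosome subunits 6 of 49 (12.2%). Ribosomal proteins had 7 of 74 (9.46%), translation factors 6 of 63 (9.52%), histones 6 of 62 (9.68%) and the proteasome list 4 of 45 (8.89%). Respiratory chain genes had 7 of 83 (8.43%), zinc finger genes 24 of 364 (6.59%) and solute carriers 13 of 247 (5.26%). Mitochondrial ribosomal proteins had 3 of 74 (4.05%), and aminoacyl-tRNA synthetases none of 32. Strong examples were Rps19, a protein of the small ribosomal subunit, with Sox4 ranks of 98, 50 and 61 (chr7:24884029-24884590), and Ddx5, an RNA helicase whose start lies beside Cep95, with ranks of 14, 69 and 19 (chr11:106788488-106789344). Ubb, which encodes polyubiquitin, ranked 9, 2529 and 59 (chr11:62550983-62551557).

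The comparison of SoxC double knockout with wildtype epithelium asked whether these gene ends were as open in the knockout. Which SoxC genes were deleted, and which were left, is not given in the labels. All 597 sites had a peak in both knockout lists (100%, exact binomial 95% interval 99.4 to 100%), against 13477 of 13540 other open gene ends (99.5%) and 96.1% of all regions open in wildtype. The knockout lists are longer than the wildtype lists. With each list cut to its 50000 strongest peaks, 99.5% of the sites had a peak in both knockout lists. How far list length adds to the shares of the other regions was not tested. Where a peak had to cover at least 50% of the site, 96.3% of the sites had one in both knockout lists.

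Changes in order were tested with limma on the rank score, log2 of the number of regions over the rank, over 60963 regions with a peak in all 5 lists (Benjamini-Hochberg adjusted p below 0.05). A positive difference means nearer the top in knockout. At 118 sites (19.8%) the score was higher in knockout, against a background of 12.9% of all regions, and at 53 sites (8.88%) it was lower, against 11.1%. Other open gene ends were higher in 16.6% and lower in 11.2%. The median difference was 0.29 over the sites, 0.10 over other open gene ends and −0.03 over all regions. Strong gene ends, within the 10000 strongest peaks of all 3 wildtype lists, were also compared. This set was chosen by wildtype rank, which is also a side of the difference, after the strength of the sites had been seen. By that choice alone the set can show lower differences, with and without a site, and how far was not tested. Of its 463 sites 16.0% were higher and 11.2% lower by rank, with a median of 0.10. Of its 4169 gene ends with no site 11.7% were higher and 22.5% lower, with a median of −0.37. The fold enrichment of each peak was then used in place of its rank, put on a common scale by quantile normalization. By it 2 sites were higher and 281 (47.1%) lower, against 12.5% of all regions either way. Other open gene ends were higher in 6.09% and lower in 17.7%. The median fold difference was −0.54 over the sites and −0.23 over other open gene ends. In the same set of strong gene ends, 267 of 463 sites and 1797 of 4169 others were lower by fold enrichment, with medians of −0.56 and −0.43. The direction of the change over these sites as a group thus depended on the measure, and the cause of the disagreement was not tested. Single libraries moved these values. Without knockout replicate 1 the site median by rank score was 0.50, against 0.11 over other open gene ends and −0.02 over all regions. Without knockout replicate 2 the site median was 0.08, the same as over other open gene ends, against −0.05 over all regions. Each of these fits rests on a single knockout library, so only medians are given for the sites as a group. Without wildtype replicate 2 the rank score called 39 sites higher (6.53%), against 5.79% of all regions and 7.54% of other open gene ends. It called 29 lower (4.86%), against 6.5% of all regions. Without wildtype replicate 3 it called 71 higher (11.9%, against 9.45% of all regions) and 36 lower (6.03%, against 9.88%).

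The calls of the 2 measures were set side by side. Since 38 of the 597 sites (6.37%) had a positive difference by fold enrichment, lower calls by rank could mostly be shared and higher calls could not, so the overlap is a description. Of the 53 sites lower by rank, 52 were also lower by fold enrichment (8.71% of the sites), the exception being Cblb, which encodes a ubiquitin ligase. The background for lower calls by both measures was 8.06% of all regions, and other open gene ends had 8.45%, so the share of the sites was near both. Of the 118 sites higher by rank, 2 were also higher by fold enrichment, 5 were lower and 111 were not called. Those 2 are 0.335% of the sites, against a background of 7.28% of all regions and 4.96% of other open gene ends. Of the 281 sites lower by fold enrichment, 52 were lower by rank, 224 were not called and 5 were higher. The ranks of both knockout libraries lay beyond all 3 wildtype ranks on the side of stronger peaks at 222 sites, against a background of 27.5%, and on the side of weaker peaks at 119 sites, against a background of 30.5%. At 256 sites the groups overlapped.

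**Figure D3:**
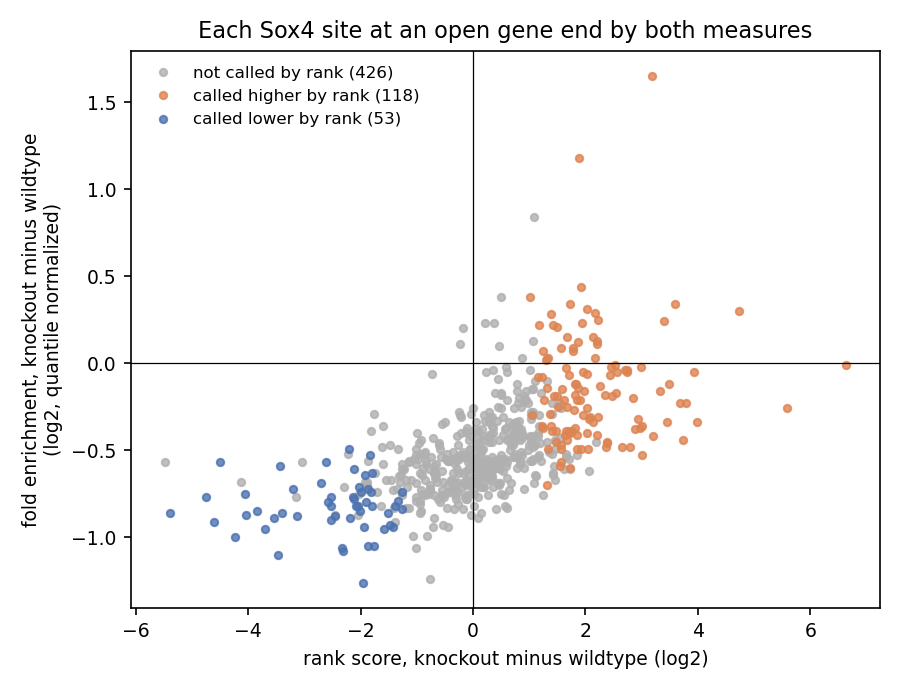
Difference between SoxC double knockout and wildtype at each of the 597 sites by rank score (horizontal axis, log2) and by fold enrichment (vertical axis, log2, quantile normalized). Colours give the call by rank score: 118 higher, 53 lower and 426 not called. The sites called higher by rank are spread around and below 0 on the vertical axis, and those called lower lie below 0 on both.

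The 52 sites lower in knockout by both measures had median ranks of 6213 and 3364 in knockout and 1078, 1037 and 923 in wildtype. Of the 52, 36 were within the 10000 strongest peaks of all 5 lists and 16 were not, with a knockout rank as far down as 55452 at Gm31649 with Trim28, and 18 had a Sox4 window in all 3 replicates. The largest drop was at Hmgb2, which encodes an HMG box protein of proliferating cells (chr8:57511442-57512294). Its Sox4 ranks were 2460 in replicate 1 and 5752 in replicate 3, with no window in replicate 2. Hmgb2 ranked 1968 and 117 in knockout and 15, 4 and 28 in wildtype, with rank scores of 6.93 ± 2.87 in knockout (SD, n = 2) and 12.32 ± 1.43 in wildtype (SD, n = 3). The difference was −5.39 (SE 1.53, limma adjusted p = 0.0203), and the ranks of the groups did not overlap. It rested on few libraries. The difference was −3.36 without knockout replicate 1, and the adjusted p was 0.0671 to 0.361 without knockout replicate 1, wildtype replicate 2 or wildtype replicate 3 in turn.

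Fbxo5, which encodes the anaphase-promoting complex inhibitor Emi1, had a site (chr10:5805476-5806034) with Sox4 ranks of 10839, 13 and 26. Its ATAC ranks were 6558 and 3686 in knockout and 384, 432 and 461 in wildtype. The difference of −3.54 (SE 0.57, limma adjusted p = 0.00118) was far larger than the spread within either group, and the call held without each library in turn. Sap130, which encodes a subunit of the Sin3 corepressor complex, ranked 2331 and 1865 in knockout and 14, 206 and 169 in wildtype, a difference of −4.75 (SE 1.07, adjusted p = 0.00679). At Mplkip with Sugct the ranks were 1986 and 770 in knockout and 67, 48 and 43 in wildtype (chr13:17694949-17695524), and the call was lost without knockout replicate 1 (adjusted p = 0.0677). At Hibch, an enzyme gene of valine breakdown, they were 1562 and 101 in knockout and 6, 30 and 34 in wildtype (chr1:52844643-52845144). Sox4 ranks were 323, 476 and 119 at Sap130. Replicates 1 and 3 gave Sox4 ranks of 6686 and 9479 at Mplkip with Sugct and of 5369 and 433 at Hibch. The Hibch call was lost when any 1 of 4 libraries was left out, knockout replicate 1 and the 3 wildtype replicates (adjusted p 0.0967 to 0.458), and its difference of −4.50 was −2.53 without knockout replicate 1.

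Mex3c, Golim4, Dsel and Ripk2 fell by 4.23, 4.05, 4.04 and 3.84 on the log2 rank score, with limma adjusted p-values of 0.00159, 0.00262, 0.000856 and 0.0015. These calls, like that of Sap130, held without each library in turn. Mex3c encodes an RNA-binding ubiquitin ligase, Golim4 a Golgi membrane protein, Dsel an epimerase-like protein of dermatan sulfate synthesis and Ripk2 a kinase of innate immune signalling. Dsel ranked 9260 and 3400 in knockout and 391, 317 and 324 in wildtype (chr1:111865149-111865707). Sox4 ranks in replicates 1 and 3 were 9819 and 1802 at Mex3c and 5353 and 12588 at Golim4. They were 3271 and 319 at Dsel in replicates 2 and 3, and 171 and 5404 at Ripk2 in replicates 1 and 2.

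Yap1, which encodes the Hippo pathway coactivator, had a site 515 bp downstream of its start (chr9:8003331-8004331) with Sox4 ranks of 133 in replicate 2 and 14621 in replicate 3. It ranked 17441 and 9024 in knockout and 7505, 1251 and 100 in wildtype, a difference of −3.70 (SE 1.14, limma adjusted p = 0.0294). The wildtype libraries were far apart from each other. The difference was −2.07 without wildtype replicate 3 and −2.06 with the replicate number as a block, and the call was lost without knockout replicate 1, wildtype replicate 2 or wildtype replicate 3 (adjusted p 0.0845 to 0.154). Dusp6, a feedback inhibitor of Fgf signalling, ranked 4202 and 2956 in knockout and 954, 952 and 937 in wildtype (chr10:99262647-99263639), a difference of −1.91 (SE 0.52, adjusted p = 0.0163). Its wildtype ranks were nearly equal, yet the call was lost without knockout replicate 1 or wildtype replicate 2 (adjusted p 0.0582 to 0.152). Isl2 ranked 20016 and 17568 in knockout and 5035, 8888 and 9564 in wildtype, a difference of −1.33 (SE 0.38, adjusted p = 0.0217), lost without either knockout replicate or wildtype replicate 2 (adjusted p 0.0542 to 0.196). Zbtb20, a zinc finger factor with Sox4 ranks of 6414, 28 and 77, ranked 2265 and 1039 in knockout and 374, 62 and 201 in wildtype (chr16:42875248-42875874). Its difference was −3.21 (SE 0.86, adjusted p = 0.0161), lost without knockout replicate 1, wildtype replicate 2 or wildtype replicate 3 (adjusted p 0.0544 to 0.151).

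**Figure D4:**
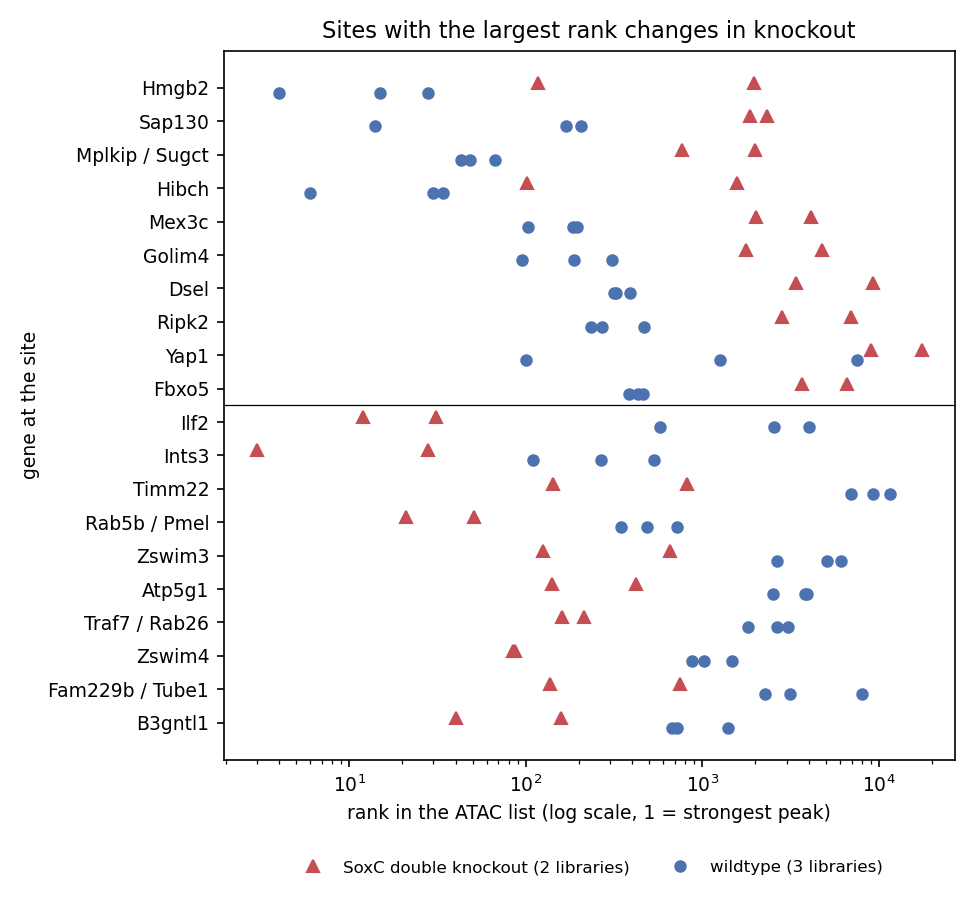
ATAC ranks (horizontal log axis, 1 = strongest peak) in SoxC double knockout (red triangles, 2 libraries) and wildtype (blue circles, 3 libraries) at the 10 sites with the largest lower calls (above the line) and the 10 with the largest higher calls (below it) by rank score. At each site the ranks of the genotypes do not overlap, and none of the 10 higher calls is also made by fold enrichment.

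Sites higher in knockout by rank had median ranks of 1241 and 1761 in knockout and 5044, 6331 and 6488 in wildtype. The largest difference was at Ilf2, which encodes the NF45 subunit of a double-stranded RNA-binding complex (chr3:90475998-90476541). Its Sox4 ranks were 11780 in replicate 1 and 5705 in replicate 3, with no window in replicate 2. Ilf2 ranked 12 and 31 in knockout and 578, 2539 and 4042 in wildtype, a difference of 6.63 (SE 0.96, limma adjusted p = 0.000658), while its fold enrichment differed by −0.01 (SE 0.16). Timm22, part of the mitochondrial import machinery, ranked 142 and 824 in knockout and 6992, 11577 and 9271 in wildtype (chr11:76406747-76407398), a difference of 4.74 (SE 0.64, adjusted p = 0.000451). Its Sox4 ranks were 1165, 15813 and 9166. Atp5g1, a subunit of ATP synthase with Sox4 ranks of 16, 2546 and 95, ranked 141 and 421 in knockout and 3809, 3914 and 2517 in wildtype (chr11:96075622-96076215). The difference was 3.79 (SE 0.62, adjusted p = 0.00128), and its fold enrichment differed by −0.23 (SE 0.18).

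The other large rank gains were at Ints3, Rab5b with Pmel, Zswim3, Traf7 with Rab26, Zswim4, Fam229b with Tube1, and B3gntl1, with differences from 5.59 at Ints3 to 3.48 at B3gntl1. The calls at Ilf2, Timm22, Atp5g1, Zswim3, Traf7 with Rab26, and Zswim4 held without each library in turn. At Ints3 the difference was 3.16, and at Fam229b with Tube1 it was 2.34 in place of 3.59, without knockout replicate 1. The calls at Ints3 and B3gntl1 were lost without knockout replicate 1, wildtype replicate 2 or wildtype replicate 3. The call at Rab5b with Pmel was lost without wildtype replicate 2 or 3, and that at Fam229b with Tube1 without knockout replicate 1 (adjusted p 0.0507 to 0.182 over these losses). None of the 10 was called higher by fold enrichment, and the fold difference was positive only at Timm22 and Fam229b with Tube1.

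Mrfap1 and Sfswap, singled out after their values were seen, were the 2 sites higher by both measures. At Mrfap1 (chr5:36795778-36796465) the ranks were 3605 and 7850 in knockout and 51552, 49840 and 105450 in wildtype. The rank score difference was 3.19 (SE 0.37, limma adjusted p = 0.000176), and the fold enrichment was 16.9 and 15.8 in knockout and 5.63, 4.48 and 2.78 in wildtype. At Sfswap, which encodes a splicing regulator (chr5:129500798-129501322), the ranks were 9211 and 14695 in knockout and 44188, 44924 and 57712 in wildtype, a difference of 1.88 (SE 0.32, adjusted p = 0.00159), lost without knockout replicate 1 (adjusted p = 0.053). Both were weak peaks in wildtype. The 5 sites higher by rank and lower by fold enrichment were at Kdm4a, Ube2s, Tcf3, Per1 and Spag7 with Camta2.

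Calls within the gene lists are to be read against those over all 597 sites, of which 19.8% were higher and 8.88% lower by rank, and 0.335% higher and 47.1% lower by fold enrichment. The 18 cell type and pathway lists together had 30 sites. By limma on the rank score 3 of the 30 were higher (10.0%), Rab5b with Pmel, Tulp1 with Tead3 and Ccdc77 with Kdm5a, and 4 were lower (13.3%), Hmgb2, Isl2, Yap1 and Dusp6. By fold enrichment 17 of the 30 were lower (56.7%) and 0 higher. In the Hippo list Yap1 was lower and the site of Tulp1 with Tead3 higher, with a difference of 1.05 (SE 0.37, limma adjusted p = 0.0491) that lost its call without any 1 of 4 libraries (adjusted p 0.0916 to 0.29). Among ER and Golgi traffic genes 5 of 15 sites were higher, among them Rab40c with a difference of 2.20 (SE 0.54, adjusted p = 0.0104, lost without wildtype replicate 2 at 0.0701), and 3 were lower. The ER and Golgi median was 0.61, against 0.29 over all sites, and by fold enrichment 6 of the 15 were lower. Zinc finger genes had 5 higher and 5 lower of 24 sites, with a median of −0.57. Histone genes had 2 higher of 5 sites, H2bc14 with a difference of 1.81 (SE 0.44, adjusted p = 0.00997) and the site of Trim17 with H2aw with 2.71 (SE 0.54, adjusted p = 0.0037). Both calls were lost without knockout replicate 1, where the difference at Trim17 with H2aw was 1.68, and that of H2bc14 also without knockout replicate 2 (adjusted p 0.0545 to 0.0757). Respiratory chain genes had 2 of 7 higher, Atp5g1 and Ndufs3, and solute carriers 5 of 13 higher and 1 lower. Neither of the 2 sites higher by fold enrichment belongs to a list.

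A further 4 sites of the lists were called higher by rank and had a negative difference by fold enrichment. Kdm5a with Ccdc77 had a difference of 1.38 (SE 0.41, limma adjusted p = 0.0261), Hnrnpul1 1.71 (SE 0.43, adjusted p = 0.0111), Mrpl51 with Ncapd2 1.47 (SE 0.47, adjusted p = 0.034) and Eif5a 1.33 (SE 0.43, adjusted p = 0.0348). All 4 lost the call without knockout replicate 1 (adjusted p 0.0948 to 0.207). Kdm5a, Mrpl51 and Eif5a also lost it without knockout replicate 2, wildtype replicate 2 or wildtype replicate 3 (adjusted p 0.0614 to 0.241).

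Promoter letters were counted in the 250 bases before and 50 after each annotated start, on both strands. The table held 658 promoters that overlap 465 of the sites, 9213 promoters at other open gene ends and 20085 in all. The CCAAT box stood in 55.0% of the promoters with a Sox4 site (95% interval 51.1 to 58.9%), against 38.3% at other open gene ends and 38.1% of all promoters. At least 2 copies were present in 30.5%, 14.9% and 12.8% of these sets, in the same order. Copies lay at a median of −97 bases from the start (interquartile range −161 to −53 bases). Among gene ends within the 10000 strongest peaks of all 3 wildtype lists, a choice made after the strength of the sites had been seen, the share was 61.8% with a Sox4 site and 50.1% without, a smaller difference than over all open gene ends. Counting 1 promoter per region gave 56.6% with a site and 38.4% without.

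Sox letters were about as frequent in promoters with a Sox4 site as in promoters at other open gene ends. The sequences of the sites themselves were not searched. AACAAT was found in 4.71% of promoters with a site, 4.91% at other open gene ends and 8.78% of all promoters. The share for AACAAAG was 3.95% with a site, 3.19% at other open gene ends and 4.89% of all. ACAAAG, which is contained in AACAAAG, was in 12.3%, 12.1% and 16.6% of these sets. For ETS letters (CGGAAG) the shares were 38.4% with a site, 33.5% at other open gene ends and 21.5% of all, and for YY1 letters (AAGATGG) 10.0%, 6.97% and 6.29%. The E-box CAGCTG was in 10.6% of promoters with a site and 14.6% at other open gene ends. GC boxes (GGGCGG) stood in 71.6% and 69.7% of these, against 47.0% of all promoters. Median GC content was 61.3% with a site, 62.3% at other open gene ends and 57.0% over all promoters. A match describes letters in these 300 bases, and draws nothing about which factor was bound.

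**Figure D5:**
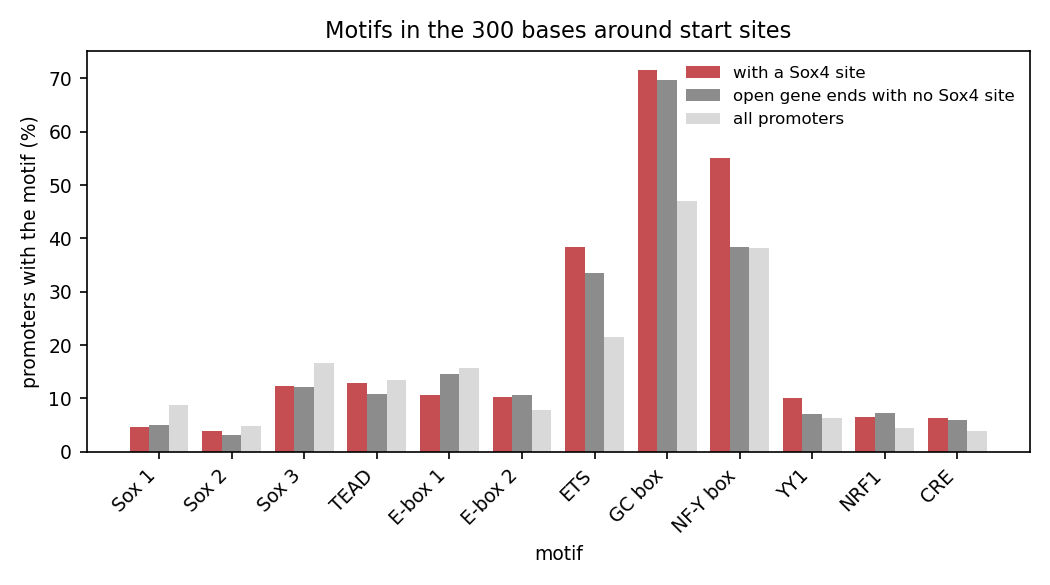
Share of promoters (%, vertical axis) that hold each motif on either strand, for promoters with a Sox4 site (red, 658), at other open gene ends (dark grey, 9213) and all promoters (light grey, 20085). The NF-Y box is the CCAAT box of the text. It shows the widest gap between promoters with a site and other open gene ends, 55.0% against 38.3%, and the 3 Sox words show almost none.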

How the data were processed

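ATAC and Sox4 data were deposited as narrowPeak lists. Per the file headers and layout, the authors deposited for each peak its fold enrichment over local background as a ratio and its −log10 p, and no read counts. The submitters' processing notes name the builds mm10 and GRCm38 and the tools STAR, MACS2, deepTools and UMI-tools, with no version. The names of the knockout lists state a p threshold and a cap, and those of the wildtype lists do not. No peak column was read other than position, fold, −log10 p and summit offset. The single-cell files were not used.

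Overlapping peaks of a library were merged and ranked by −log10 p on autosomes 1 to 19. Sox4 windows spanned 250 bp on each side of the summit. Regions came from the 50000 strongest peaks of each ATAC list, and a region took the best-ranked peak that it overlapped by at least 1 bp. Coding genes were the 20665 autosomal genes of the RefSeq mm10 table, of which 16457 matched the promoter table and its strand. Promoters on chromosome 18 were not used here.

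Knockout and wildtype were compared with limma 3.58.1 in R 4.3.3 (moderated with a trend, two-sided, Benjamini-Hochberg adjustment over 60963 regions), on log2 of the number of regions over the rank. The fit was tested on simulated data. Shares have exact Clopper-Pearson intervals at 95%, for counting error only, and regions were not treated as replicates. Alternatives were the normal score of the rank, quantile-normalized log2 fold enrichment, other limits on peaks, distance and overlap, a replicate block, and leaving out each library. Python 3.11.15 with pandas 2.3.3 was used for the rest.

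Sites named were the 10 strongest over all Sox4 replicates, up to 10 called each way with the largest differences, up to 4 per gene list, and those at the distance limit, with several genes or nearest to each other. The members and lists were chosen with earlier results of these data known.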

Additional observations from a re-analysis of the deposited data

How the results depend on the processing

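The number of sites was 230 when a window was required in all 3 Sox4 replicates and 287 to 390 when 1 Sox4 replicate was left out and both others had to hold the window, and 597 to 598 when 1 wildtype replicate was left out. It stayed within 1.5 times of 597 under the other limits tried on peaks, distance and overlap. The share of sites with a peak in both knockout lists was 96.3% where the peak had to cover at least 50% of the site. Under the same limit 471 of the 597 sites had a peak in all 3 wildtype lists. With regions from the 25000 strongest ATAC peaks, an alternative chosen after seeing the data, 5.25% of open gene ends had a site.

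Quantile-normalized fold enrichment gave 2 sites higher and 281 lower and turned the median difference to −0.54. Calls by both measures together, added after seeing the data, left 2 sites higher. Leaving out 1 ATAC library gave 33 to 122 sites higher and 10 to 54 lower. The share of all regions called moved as well. Without wildtype replicate 1, 20.4% of the sites were higher, against 13.7% of all regions, and 8.04% lower, against 13.4%. Without wildtype replicate 2 these shares were 6.53% against 5.79% and 4.86% against 6.5%. The fits without a knockout replicate rest on a single knockout library, so their counts are not compared. A set of 33 called sites was followed through each setting, without sites named only for their calls, such as Kdm4a and Ndufs3. Of the 33, 16 reversed by fold enrichment: Ilf2 −0.01, Ints3 −0.26, Rab5b with Pmel −0.34, Zswim3 −0.05, Atp5g1 −0.23, Traf7 with Rab26 −0.44, Zswim4 −0.23, B3gntl1 −0.12, Rab40c −0.41, Tulp1 with Tead3 −0.30, Ccdc77 with Kdm5a −0.36, H2bc14 −0.18, Trim17 with H2aw −0.04, Hnrnpul1 −0.39, Ncapd2 with Mrpl51 −0.45 and Eif5a −0.49. The cause was not tested. Of the 33, 18 lost their call without knockout replicate 1, 14 without wildtype replicate 2, 11 without wildtype replicate 3, 6 without knockout replicate 2 and 1 without wildtype replicate 1.

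With the replicate number as a block, 128 sites were higher (21.4%, against 15.7% of all regions and 19.4% of other open gene ends) and 63 lower (10.6%, against 14.2% and 13.7%). Among the 33 sites followed, 3 lost their call in that fit, Ints3 (adjusted p = 0.103), Hmgb2 (adjusted p = 0.0547) and Hibch (adjusted p = 0.0918), all with limma. The deviations of same-numbered libraries correlated at 0.095 and 0.071 over regions, with 2 pairs. The deviations of the 2 knockout libraries mirror each other, so these values are not separate. The labels do not say whether same-numbered libraries share a batch or litter.

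Against other open gene ends in place of all promoters, the difference in share was −0.2 points for AACAAT, 0.8 for AACAAAG, 0.2 for ACAAAG, 2.0 for GGAATG, −0.3 for CACGTG and −0.7 for GCATGCG, of which all but AACAAT changed sign. Unknown depth and 2 knockout libraries limit the precision of every rank comparison.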

Other observations

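A further Sox4 list belongs to the sample of Sox4 replicate 1, but its peaks carry another library tag, and the site rule did not use it. It held 417444 peaks as deposited, far more than the lists of the rule. Its peaks overlapped 585 of the 597 sites (98.0%, exact binomial 95% interval 96.5 to 99.0%) and 3735 of 13540 other open gene ends (27.6%). Among its 20000 strongest peaks were 302 of the sites (50.6%, 46.5 to 54.7%) and 276 of the other gene ends (2.04%, 1.81 to 2.29%). Fiz1 with Zfp524 ranked 25 in that list and Cbx5 with Hnrnpa1 ranked 41, while Sox12 ranked 69224 and Mrfap1 had no peak. Since the list comes from the same sample as replicate 1, it is not an independent replicate of these sites.

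In the promoters of the 52 sites lower in knockout by both measures that the table covers, the CCAAT box stood in 29 of 46 (63.0%, exact binomial 95% interval 47.5 to 76.8%). In those of the sites higher by rank it stood in 88 of 153 (57.5%, 49.3 to 65.5%). At least 2 copies were present in 19.6% of the promoters that were lower and in 35.3% of those that were higher, and this difference was not tested. Sites in 3 Sox4 replicates had the box in 54.2% of promoters and sites in 2 replicates in 55.6%.

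CpG dinucleotides were at a median of 0.818 times the number that the base composition gives in promoters with a Sox4 site, 0.789 at other open gene ends and 0.586 over all promoters.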
